A study of Homo sapiens with 3 samples.

Results

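The transcription factors that set the identity of lung and airway epithelium were examined as a group of 9 genes, NKX2-1, FOXA1, FOXA2, GATA6, SOX2, SOX9, CEBPA, HNF4A and TP63. Their rows were taken by gene symbol from a table of mRNA levels of 20494 genes, and the circular RNAs (circRNAs) whose listed host is a member were taken from a table of 92509 circRNAs, which gave 6 circRNAs from 3 of the 9 genes. HCC827 and A549 are lung adenocarcinoma lines, HCC827 with mutated EGFR and A549 with the wild type, and BEAS-2B is an immortalised bronchial epithelial line, labelled as normal lung, that serves as the comparison. All of them were grown in DMEM with 10% serum, with no treatment given in the labels, and RNA depleted of ribosomal RNA was sequenced on an Illumina HiSeq. Each line has 1 library and no replicate, so every difference below lies between 2 libraries, has no replicate spread to be set against, and comes with no test.

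Lineage transcription factors bind DNA near the genes of a cell type and keep those genes active, and cancers often keep or exchange the set they inherited. NKX2-1 (also called TTF-1) marks the lung from the earliest bud onwards and drives surfactant genes in alveolar type II cells, which make the lipid and protein film of the air sacs. FOXA1 and FOXA2 are pioneer factors that open chromatin in tissues derived from endoderm, and GATA6 acts beside them. In the growing airway SOX2 marks the stalk and SOX9 the branching tip. CEBPA promotes maturation of alveolar cells and hepatocytes, HNF4A is a nuclear receptor that specifies liver and gut, and TP63 maintains the basal stem cells of the airway and squamous epithelium.

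The mRNA values are FPKM, fragments scaled to transcript length and to the size of the library, in which low values stand at exactly 1 with few exceptions. This is called the floor here. How it arose is not known, so a value at the floor is not read as a silent gene. Of 86 ribosomal protein gene names, 6 were at the floor in each line. The median of all 86 was 131 FPKM in HCC827, 92.8 FPKM in A549 and 94.4 FPKM in BEAS-2B. Which names stood at the floor was not examined, so this count cannot decide whether the floor hides expressed genes. Genes above the floor numbered 11682 (57.0%) in HCC827, 11590 (56.6%) in A549 and 11568 (56.4%) in BEAS-2B, with medians of 6.39, 6.26 and 7.26 FPKM in that order. The number of reads is unknown for each library, so no counting interval could be given.

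The labels were checked against epithelial markers. All 10 were above the floor in HCC827, 6 were in A549 and 5 were in BEAS-2B, and their FPKM above the floor summed to 1400, 1494 and 363 in the same order. KRT8, a keratin of simple epithelia, made up 1419 FPKM of the A549 sum and KRT19 697 FPKM of the HCC827 sum. BEAS-2B had EPCAM, CDH1, CLDN4, CLDN7 and ESRP1 at the floor, but KRT8 was 282 FPKM and KRT7 was 74.4 FPKM. Of 12 mesenchymal markers, 2 were above the floor in HCC827, 5 in A549 and 7 in BEAS-2B. Their summed FPKM above the floor was 6.79 in HCC827, 191 in A549 and 538 in BEAS-2B, mostly VIM, the vimentin gene. The label of an epithelial line was therefore carried in BEAS-2B by KRT8 and KRT7 and not by the junction genes. The other keratins of the list, KRT18 (1.61 FPKM) and KRT19 (1.84 FPKM), were close to the floor in BEAS-2B. Of 8 immune markers, 2 were above the floor in each line (30.4, 9.17 and 9.74 FPKM summed), with PTPRC at the floor. Of 5 endothelial markers, 1, 0 and 2 were above it in HCC827, A549 and BEAS-2B.

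The stretches of DNA just before the start sites of members are shown because several of these factors are known to bind one another's control regions. RefSeq (GRCh38.p14) gave 250-base windows before 9 start sites of 7 members, with none for FOXA2 and SOX9, and 4 of the windows are printed 5′ to 3′ along the gene. Capitals mark matches to short words that the factors of each family are known to bind. The NKX2-1 window is chr14:36519557-36519806 on the minus strand, FOXA1 is chr14:37595250-37595499 on the minus strand, HNF4A is chr20:44355449-44355698 on the plus strand and TP63 is chr3:189631139-189631388 on the plus strand.
NKX2-1: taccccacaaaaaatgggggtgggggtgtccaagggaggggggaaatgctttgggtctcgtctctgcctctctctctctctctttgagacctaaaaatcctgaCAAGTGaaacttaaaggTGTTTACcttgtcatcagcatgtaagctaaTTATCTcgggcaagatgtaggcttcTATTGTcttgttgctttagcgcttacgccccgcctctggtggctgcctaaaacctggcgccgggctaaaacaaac
FOXA1: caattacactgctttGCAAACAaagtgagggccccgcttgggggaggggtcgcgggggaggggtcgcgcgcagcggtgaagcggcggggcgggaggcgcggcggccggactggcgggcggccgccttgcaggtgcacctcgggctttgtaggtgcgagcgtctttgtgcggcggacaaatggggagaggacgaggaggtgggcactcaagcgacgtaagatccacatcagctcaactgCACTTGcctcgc
HNF4A: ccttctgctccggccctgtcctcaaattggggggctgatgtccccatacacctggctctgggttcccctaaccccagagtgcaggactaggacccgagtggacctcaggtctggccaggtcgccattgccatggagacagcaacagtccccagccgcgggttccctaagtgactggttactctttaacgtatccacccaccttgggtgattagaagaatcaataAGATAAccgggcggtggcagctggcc
TP63: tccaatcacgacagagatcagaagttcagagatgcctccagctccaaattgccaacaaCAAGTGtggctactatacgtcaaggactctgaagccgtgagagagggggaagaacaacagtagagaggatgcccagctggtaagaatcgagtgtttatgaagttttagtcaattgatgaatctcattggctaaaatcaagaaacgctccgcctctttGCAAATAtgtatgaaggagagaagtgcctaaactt
The NKX2-1 window held a word of NKX2-1 itself, CAAGTG, which began 147 bases before the start, a FOXA word, TGTTTAC, at 130 bases, a GATA word, TTATCT, at 100 bases and a SOX word, TATTGT, at 75 bases. The FOXA1 window held a FOXA word, GCAAACA, at 235 bases and an NKX2-1 word, CACTTG, at 12 bases. In the HNF4A window the capitals are a GATA word, AGATAA, at 26 bases, and in the TP63 window they are an NKX2-1 word, CAAGTG, at 192 bases and a FOXA word, GCAAATA, at 35 bases. The other NKX2-1 window, chr14:36520233-36520482, held TGTTTGC at 241 bases, and none of the words was found in the windows of SOX2, GATA6 and CEBPA or in the second HNF4A window, chr20:44400989-44401238.

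Such short words are common, and all promoters were therefore searched on both strands. CAAGTG and its reverse CACTTG were found in 9.50% of 35116 windows of the same length and in 3 of the 9 member windows. The FOXA word GCAAACA, with the variant words GCAAATA for a changed end, GTAAACA for a changed start and GTAAATA for both changes, was searched with all reverses and was in 10.6% of all windows and in 4 member windows, and AGATAA or TTATCT was in 9.17% of all windows and in 2. The SOX word ACAATA, its variant form ACAATG and the reverse words CATTGT for the variant and TATTGT for the first were in 15.1% of all windows and in 1 of the members' windows. TTGCNNAA with TTNNGCAA, the words searched for CEBP factors, was in 9.05% of all windows, and the HNF4A words CAAAGGTCA, CAAAGTCCA and CAAAGTTCA with their reverses were in 0.911%, and neither was in a member window. No match overlapped another. A match describes the letters only and shows no binding in these lines.

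Across the 3 lines the members gave 27 mRNA levels, of which 14 were above the floor, between 2.01 and 10.4 FPKM, and 13 were at it. A549 had 7 members above the floor, HCC827 had 4 and BEAS-2B had 3. Above-floor FPKM of the members summed to 22.2 in HCC827, 45.4 in A549 and 11.7 in BEAS-2B. The highest member was NKX2-1 in HCC827 (9.92 FPKM), FOXA2 in A549 (10.4 FPKM) and SOX9 in BEAS-2B (5.08 FPKM), so a different factor led each line. Of the 9 members, 5 were above the floor in exactly 1 line, compared with 10.7% of all genes. This share and those below include the 32.7% of genes at the floor in every line. Every member left the floor in at least 1 line, so the shares are not of a like set. FOXA2, CEBPA, HNF4A and TP63 were above it in A549 alone, a pattern of 3.21% of all genes, and NKX2-1 in HCC827 alone, a pattern of 4.12%. SOX2 was above it in HCC827 and A549 (3.54% of genes), SOX9 in A549 and BEAS-2B (3.71%), GATA6 in HCC827 and BEAS-2B (3.25%) and FOXA1 in all 3 lines (46.1%). No member was above the floor in BEAS-2B alone.

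**Figure D1:**
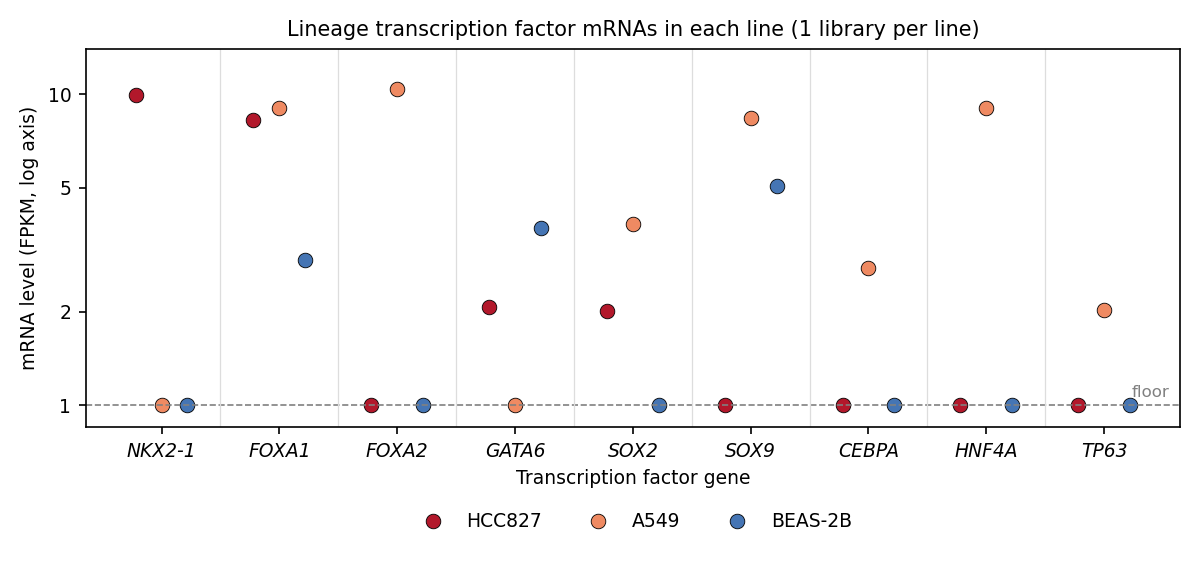
mRNA level of each of the 9 transcription factors in HCC827, A549 and BEAS-2B as deposited FPKM on a log axis, with 1 point per library and the floor of 1 FPKM as a dashed line. NKX2-1 stands at 9.92 FPKM in HCC827 and at the floor in A549 and BEAS-2B, while FOXA2, HNF4A, CEBPA and TP63 leave the floor in A549 only.

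NKX2-1, the lung identity factor, was 9.92 FPKM in HCC827, 1 FPKM in A549 and 1 FPKM in BEAS-2B. It was thus above the floor in the EGFR-mutated adenocarcinoma line only, where 64.6% of the genes above the floor were lower. The difference of log2(FPKM + 1) was 2.45 for HCC827 minus BEAS-2B and 2.45 for HCC827 minus A549. As A549 and BEAS-2B share the floor value, no difference between them could be read.

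FOXA1 was 8.24 FPKM in HCC827, 9.01 FPKM in A549 and 2.94 FPKM in BEAS-2B, the only member above the floor in every line. Both adenocarcinoma lines were above BEAS-2B, by 1.23 in HCC827 and by 1.35 in A549 on the log2(FPKM + 1) scale, and the 2 cancer lines lay 0.12 apart on that scale (HCC827 minus A549, -0.12). Its relative FOXA2, a partner of FOXA1 in lung and liver endoderm, was 1 FPKM in HCC827, 10.4 FPKM in A549 and 1 FPKM in BEAS-2B. FOXA2 in A549 was the highest of the 27 values, at a log2(FPKM + 1) difference of 2.51 to BEAS-2B, and HCC827 minus A549 was -2.51. HCC827 therefore listed FOXA1 without FOXA2, and A549 listed both at similar FPKM.

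GATA6, a zinc finger factor of lung, heart and gut endoderm, was 2.08 FPKM in HCC827, 1 FPKM in A549 and 3.73 FPKM in BEAS-2B. It was the only member whose highest value was in BEAS-2B, and the only one above the floor in HCC827 and BEAS-2B but not in A549. The differences of log2(FPKM + 1) were -0.62 for HCC827 minus BEAS-2B, -1.24 for A549 minus BEAS-2B and 0.62 for HCC827 minus A549.

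SOX2, the stalk and proximal airway factor, was 2.01 FPKM in HCC827, 3.81 FPKM in A549 and 1 FPKM in BEAS-2B. The order of the log2(FPKM + 1) differences was 1.27 for A549 minus BEAS-2B, 0.59 for HCC827 minus BEAS-2B and -0.68 for HCC827 minus A549. SOX9, the factor of the branching tip and of cartilage, was 1 FPKM in HCC827, 8.39 FPKM in A549 and 5.08 FPKM in BEAS-2B. It was the only member at the floor in HCC827 and above it in both other lines, and the log2(FPKM + 1) difference was -1.60 for HCC827 minus BEAS-2B, 0.63 for A549 minus BEAS-2B and -2.23 for HCC827 minus A549. In HCC827 the tip factor was thus at the floor while the stalk factor was just above it, and in BEAS-2B the stalk factor was at the floor and SOX9 was the highest of the 9 genes.

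CEBPA, a leucine zipper factor, was 1 FPKM in HCC827, 2.76 FPKM in A549 and 1 FPKM in BEAS-2B. HNF4A was 1 FPKM in HCC827, 9.01 FPKM in A549 and 1 FPKM in BEAS-2B. Both liver-type factors thus left the floor in A549 only, by 0.91 for CEBPA and by 2.32 for HNF4A on the log2(FPKM + 1) scale against BEAS-2B, and by the same amounts against HCC827. TP63, the basal cell factor, was 1 FPKM in HCC827, 2.03 FPKM in A549 and 1 FPKM in BEAS-2B, a log2(FPKM + 1) difference of 0.60 between A549 and BEAS-2B. In A549 only 15.0% of the genes above the floor were lower than TP63, compared with 22.8% for CEBPA and 62.6% for HNF4A, so TP63 stood near the low end of what the table resolves. TP63 is known to have an upstream start and an internal start that yield long and short proteins, and the table gives a value per gene and does not separate them.

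Comparisons used genes that left the floor in 1 or both of the 2 lines, and a gene counted as higher or lower from a 2-fold difference of FPKM + 1 onwards. Members counted here had to leave the floor in a line, so the counts describe them and support nothing further. Between HCC827 and BEAS-2B, 5 members were compared. NKX2-1 and FOXA1 were higher in HCC827, beside 12.9% of 13138 genes, and SOX9 was lower, beside 16.6% of genes. GATA6 and SOX2 lay between the limits and the other 4 were at the floor in both. The median log2(FPKM + 1) difference was 0.59 over these 5 members and -0.14 over all genes compared.

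Between A549 and BEAS-2B, 8 members were compared, and NKX2-1 was at the floor in both. FOXA1, FOXA2, SOX2 and HNF4A were higher in A549, beside 10.5% of 12952 genes, and GATA6 was lower, beside 15.3%. SOX9, CEBPA and TP63 lay between the limits. The median log2(FPKM + 1) difference was 1.09 over the 8 members and -0.16 over all genes compared. This comparison shares the BEAS-2B library with the preceding one, and FOXA1 was the only member counted as higher in both.

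Between HCC827 and A549, the lines with mutated and with wild-type EGFR, all 9 members were compared. NKX2-1 was higher in HCC827, beside 13.8% of 13100 genes, and FOXA2, SOX9 and HNF4A were lower, beside 12.4%. The remaining 5 lay between the limits, and the median log2(FPKM + 1) difference was -0.68 over the members and 0.02 over all genes. The EGFR genotype and everything else in which the 2 lines differ cannot be told apart here.

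The level of all genes in BEAS-2B depended on the scaling. Scaling by the median of ratios moved the median log2(FPKM + 1) difference of all genes by 0.18 for HCC827 minus BEAS-2B and by 0.19 for A549 minus BEAS-2B, and quantile normalization moved the A549 median by 0.12. With the median of ratios, 15.9% of genes were higher and 12.4% lower in HCC827 than in BEAS-2B, and 13.6% were higher and 10.4% lower in A549 than in BEAS-2B, and with quantile normalization the shares in A549 were 12.4% higher and 11.6% lower, and those in HCC827 were 14.1% higher and 14.2% lower. No member changed direction under either scaling, and CEBPA in A549 crossed the 2-fold limit under the median of ratios, with a log2(FPKM + 1) difference of 1.05 to BEAS-2B.

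**Figure D2:**
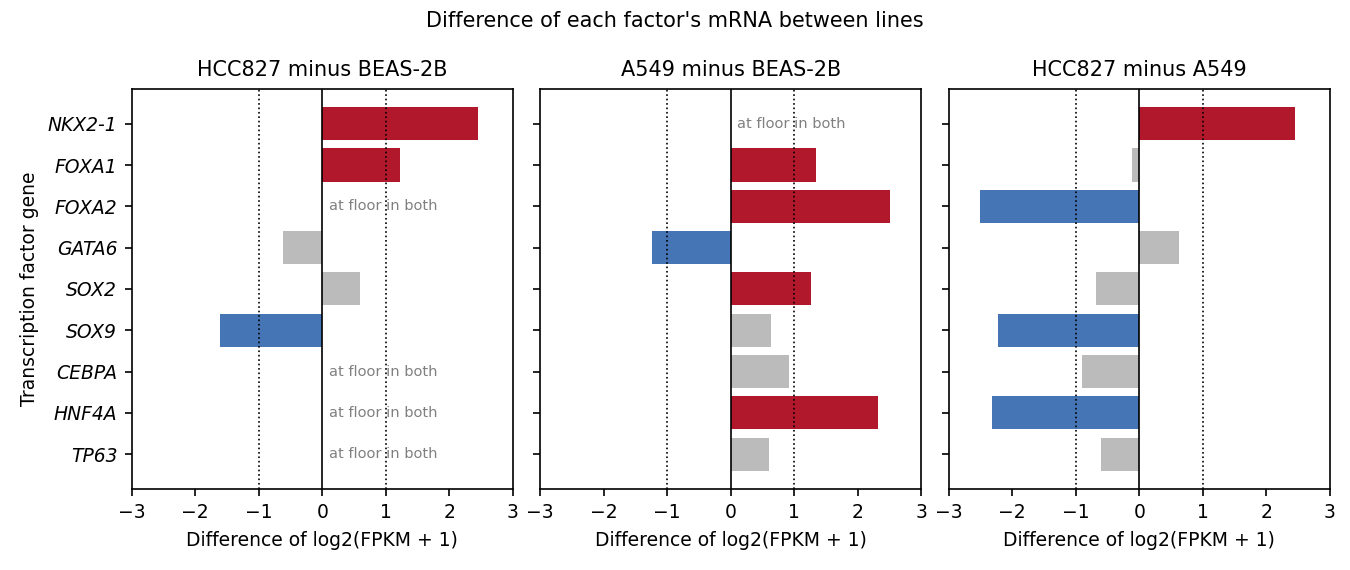
Difference of log2(FPKM + 1) of each factor for HCC827 minus BEAS-2B, A549 minus BEAS-2B and HCC827 minus A549, with 1 library per line and no error bars. Dotted lines mark a 2-fold difference, red bars are higher and blue bars lower by at least that much, and grey bars lie between. NKX2-1 in HCC827 (2.45) and FOXA2 (2.51) and HNF4A (2.32) in A549 are the longest bars against BEAS-2B.

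Other members of the same families are given next. Of 32 relatives, 15 were above the floor in HCC827, 14 in A549 and 12 in BEAS-2B. HNF4G, the closest relative of HNF4A, was 17.7 FPKM in HCC827, 1.31 FPKM in A549 and 1 FPKM in BEAS-2B. HCC827, which listed HNF4A at the floor, thus had the highest value of its relative. GATA2, a GATA factor best known from blood, was 12.3 FPKM in HCC827, 1 FPKM in A549 and 9.05 FPKM in BEAS-2B, so that GATA2 and GATA6 were both at the floor in A549. SOX4, a SOX factor of progenitor cells, was 24.9 FPKM in HCC827, 8.08 FPKM in A549 and 5.46 FPKM in BEAS-2B. Over the relatives compared, 3 were higher and 4 lower of 17 for HCC827 against BEAS-2B (median log2(FPKM + 1) difference 0.06), 3 higher and 5 lower of 16 for A549 against BEAS-2B (-0.25), and 5 higher and 3 lower of 18 for HCC827 against A549 (0.20). Scaling by the median of ratios left 3 higher and 2 lower in HCC827, and 4 higher and 3 lower in A549, so no direction can be given to the relatives as a group.

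Of 34 other transcription factors of airway and alveolar epithelium, 17 were above the floor in HCC827, 20 in A549 and 14 in BEAS-2B. For HCC827 against BEAS-2B, 10 of 20 compared were higher and 4 lower, with a median log2(FPKM + 1) difference of 0.98, and for A549 against BEAS-2B, 9 of 22 were higher and 4 lower, with a median of 0.59. EHF, an ETS factor of airway epithelium, was 38.8 FPKM in HCC827, 3.63 FPKM in A549 and 1 FPKM in BEAS-2B. GRHL2, which keeps epithelial junction genes active, was 12.7 FPKM in HCC827 and 1 FPKM in A549 and in BEAS-2B, the same pattern as NKX2-1. ID2, an inhibitor of helix-loop-helix factors that marks the lung tip in the mouse, was 23.7, 47.4 and 3.56 FPKM in HCC827, A549 and BEAS-2B, and ETV4, a tip factor downstream of FGF signalling, was 3.71, 16.8 and 1 FPKM in that order. ID2 and ETV4 were thus highest in A549, the line with the highest SOX9 mRNA. Both were however higher in HCC827, with SOX9 at the floor, than in BEAS-2B, with SOX9 at 5.08 FPKM.

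The lists also hold 20 proteins known to work with these factors on DNA, and 15 were above the floor in each line. Against BEAS-2B, 1 was higher and 2 lower of 17 in HCC827, and 2 were higher and 5 lower of 17 in A549, with median log2(FPKM + 1) differences of -0.31 and -0.36, beside -0.14 and -0.16 over all genes compared. With the median of ratios the medians were -0.13 in both comparisons and 2 were higher in HCC827, and with quantile normalization they were -0.27 and -0.16, with 2 higher in HCC827. NFIA was 9.82 FPKM in HCC827, 12.5 FPKM in A549 and 1 FPKM in BEAS-2B, while its relative NFIX was 1.45, 2.205 and 23.7 FPKM in that order, which is the opposite pattern. TLE4, a corepressor, was 1 FPKM in HCC827, 3.89 FPKM in A549 and 12.1 FPKM in BEAS-2B. SMARCA4, the motor of a chromatin remodelling complex, was 11.5 FPKM in HCC827, 1 FPKM in A549 and 16.0 FPKM in BEAS-2B, so the line with the most members above the floor had this gene at the floor.

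Marker genes of the cell types that the members are known for were read in the same table, as levels and without a claim that a member controls them here. Of 15 alveolar type II genes, a programme that NKX2-1 and CEBPA are known to serve, 6 were above the floor in HCC827, 4 in A549 and 4 in BEAS-2B. Their summed FPKM above the floor was 469 in HCC827, 19.9 in A549 and 18.4 in BEAS-2B. LPCAT1 alone was the largest part of the sum in each line. SFTA2 was 61.3 FPKM in HCC827 and at the floor in A549 and BEAS-2B, SFTA3, a gene beside NKX2-1, was 5.27 FPKM in HCC827 and at the floor in A549 and BEAS-2B, and NAPSA, an aspartic protease that matures surfactant protein, was 34.5, 1.14 and 1 FPKM in HCC827, A549 and BEAS-2B. LPCAT1, an enzyme of surfactant lipid synthesis, was 363 FPKM in HCC827, 13.2 FPKM in A549 and 10.7 FPKM in BEAS-2B. Of the 8 compared, 4 were higher in HCC827 than in BEAS-2B and none lower, while none of 5 passed 2-fold in A549. ABCA3, the lipid transporter of surfactant storage, was 2.18 FPKM in HCC827, 3.999 FPKM in A549 and 3.89 FPKM in BEAS-2B, HHIP was 1, 1.51 and 2.06 FPKM and LAMP3 was 1, 1 and 1.83 FPKM in that order, so these 3 were lowest in HCC827, LAMP3 jointly with A549, within 2-fold of FPKM + 1. The defining surfactant genes SFTPA1, SFTPA2, SFTPB, SFTPC and SFTPD were at the floor in every line, HCC827 with its NKX2-1 included, as were CLDN18 and PGC.

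Of 10 club and secretory genes, 3, 2 and 3 were above the floor in HCC827, A549 and BEAS-2B, and SCGB1A1, the defining club cell gene, was at the floor in all. LCN2, an iron-binding protein of secretory cells, was 690 FPKM in HCC827, 16.0 FPKM in A549 and 5.96 FPKM in BEAS-2B, and WFDC2 was 22.6, 1 and 8.09 FPKM in that order, whereas CYP2F1 stayed between 2.02 and 2.60 FPKM. Of 11 goblet genes, 5 were above the floor in HCC827, 6 in A549 and 2 in BEAS-2B. MUC5AC, the secreted mucin of surface goblet cells, was above the floor in A549 only (49.2 FPKM), and MUC5B, the mucin of airway glands, was 48.0 FPKM in HCC827, 11.2 FPKM in A549 and 1 FPKM in BEAS-2B. AGR2, which folds mucins, was 20.3, 132 and 1 FPKM in HCC827, A549 and BEAS-2B, and MUC1, a membrane mucin, was 102, 2.93 and 16.9 FPKM. Against BEAS-2B, 5 of 6 goblet genes compared were higher in HCC827 and 5 of 7 in A549, while CREB3L1 was lower in both.

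Of 24 basal and squamous genes, the programme of TP63, 12 were above the floor in HCC827, 7 in A549 and 13 in BEAS-2B. A549, the only line with TP63 above the floor, thus had the fewest, and KRT5, KRT14, KRT6A, KRT6B, NGFR, DSG3, SERPINB5, TRIM29 and FAT2 were at the floor in every line. KRT17 and BNC1 were above it in BEAS-2B only, at 82.1 and 15.4 FPKM. LAMB3, a laminin chain of the epithelial basement membrane, was 21.5 FPKM in HCC827, 5.70 FPKM in A549 and 2.47 FPKM in BEAS-2B. Of 13 compared between A549 and BEAS-2B, 1 was higher and 4 lower (median log2(FPKM + 1) difference -0.02, or 0.16 with the median of ratios), and of 15 between HCC827 and BEAS-2B, 8 were higher and 4 lower (median 1.14). Of 11 ciliated genes, 4, 4 and 3 were above the floor in HCC827, A549 and BEAS-2B. DNAH5 was above it in HCC827 only (8.73 FPKM), TPPP3 in A549 only (6.49 FPKM), CCDC39 was 1.98, 4.74 and 12.9 FPKM, and SNTN was 3.38, 1.06 and 1.67 FPKM in HCC827, A549 and BEAS-2B.

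Of 23 liver and gut genes, the programme of HNF4A, FOXA2 and CEBPA outside the lung, 4 were above the floor in HCC827, 9 in A549 and 1 in BEAS-2B. Their FPKM above the floor summed to 280.3 in HCC827, 174 in A549 and 6.92 in BEAS-2B. The fibrinogen genes, which encode the clotting protein that hepatocytes secrete, were the largest part. FGB was 215 FPKM in HCC827, 55.3 FPKM in A549 and 1 FPKM in BEAS-2B, FGA was 8.05, 39.8 and 1 FPKM, and FGG was 26.6, 19.9 and 1 FPKM in the same order. All 3 chains were thus above the floor in both cancer lines, although HNF4A and FOXA2 were above it in A549 only. SERPINA1, the antitrypsin gene, was 31.0 FPKM in HCC827, 1 FPKM in A549 and 6.92 FPKM in BEAS-2B. A549 alone had CPS1, the first enzyme of the urea cycle (17.6 FPKM), TM4SF4 (14.1 FPKM), APOH (12.7 FPKM) and CDH17, a gut cadherin (11.6 FPKM), which were named after their values were seen, together with APOA2 and F2 under 2 FPKM. Another 13 genes, among them the defining hepatocyte genes ALB, APOA1 and TTR, were at the floor in every line. Of 10 genes compared, 7 were higher in A549 than in BEAS-2B and 1 lower (median log2(FPKM + 1) difference 2.85), and all 4 compared were higher in HCC827 than in BEAS-2B (median 2.98).

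Cartilage genes, the programme of SOX9 outside the lung, were low throughout. Of 9, COL9A2 was 1.87 FPKM in HCC827, 1 FPKM in A549 and 3.002 FPKM in BEAS-2B, MATN3 was 1, 3.62 and 2.53 FPKM, and the other 7, with COL2A1 and ACAN, were at the floor in every line. Of 8 neuroendocrine genes, 3 were above the floor, all in A549, namely CHGB (5.41 FPKM), SYP (2.16 FPKM) and CHGA (1.22 FPKM).

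The epithelial and mesenchymal lists separated the lines further. CDH1, the E-cadherin gene, was 198 FPKM in HCC827, 18.2 FPKM in A549 and 1 FPKM in BEAS-2B, EPCAM was 166, 4.23 and 1 FPKM, and KRT19 was 697, 28.7 and 1.84 FPKM in that order. VIM was 1.47 FPKM in HCC827, 173 FPKM in A549 and 411 FPKM in BEAS-2B, CDH2, the N-cadherin gene, was 1, 5.29 and 31.3 FPKM, and COL1A1, a fibrillar collagen, was 5.32, 5.21 and 60.6 FPKM. KRT8 went the other way, at 91.6 FPKM in HCC827, 1419 FPKM in A549 and 282 FPKM in BEAS-2B. So did KRT7, at 26.3, 17.5 and 74.4 FPKM in that order. KRT18 did not go with KRT8 and KRT7. It was highest in HCC827, 5.65 FPKM in A549 and lowest in BEAS-2B (1.61 FPKM). NKX2-1 was thus listed above the floor in the line with the highest CDH1, EPCAM and KRT19 and the lowest VIM, which also had the lowest KRT8. The other members did not share this order, since GATA6 was highest in BEAS-2B and the rest were highest in A549. Any relation between these values and the members' levels was not tested, with 3 lines only.

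**Figure D3:**
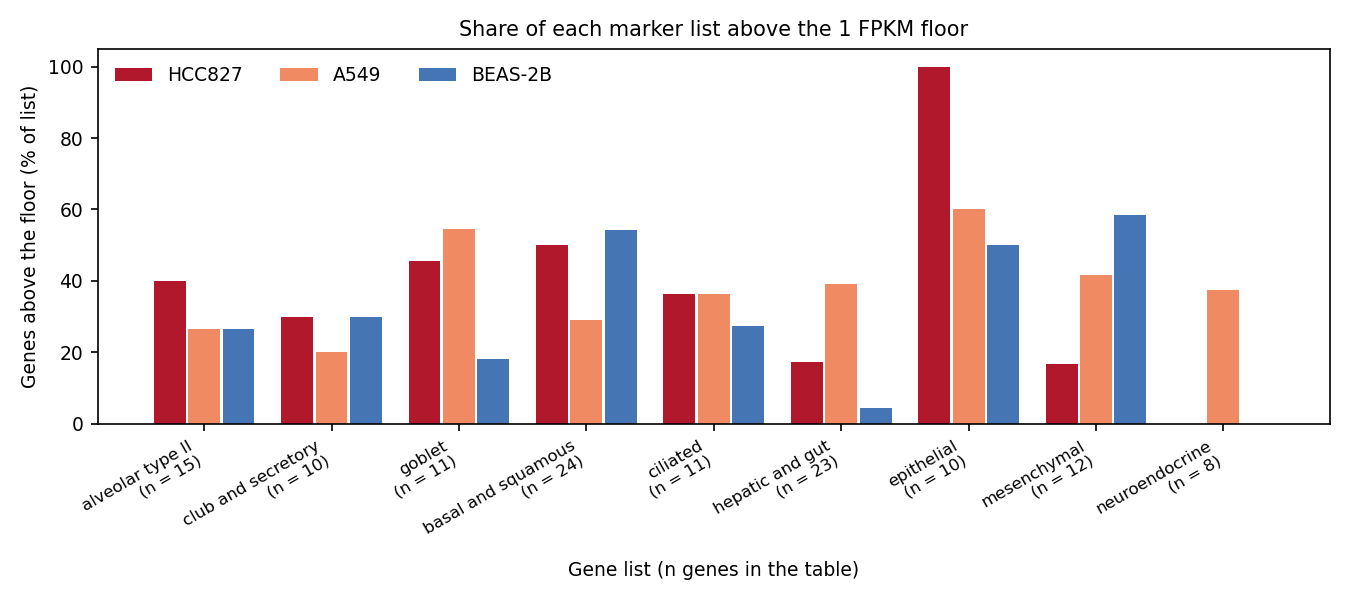
Percent of the genes of each marker list above the floor of 1 FPKM in HCC827, A549 and BEAS-2B, with the number of listed genes found in the table in brackets. HCC827 has the tallest alveolar type II and epithelial bars (6 of 15 and 10 of 10), A549 the tallest liver and gut bar (9 of 23) and BEAS-2B the tallest mesenchymal bar (7 of 12).

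**Figure D4:**
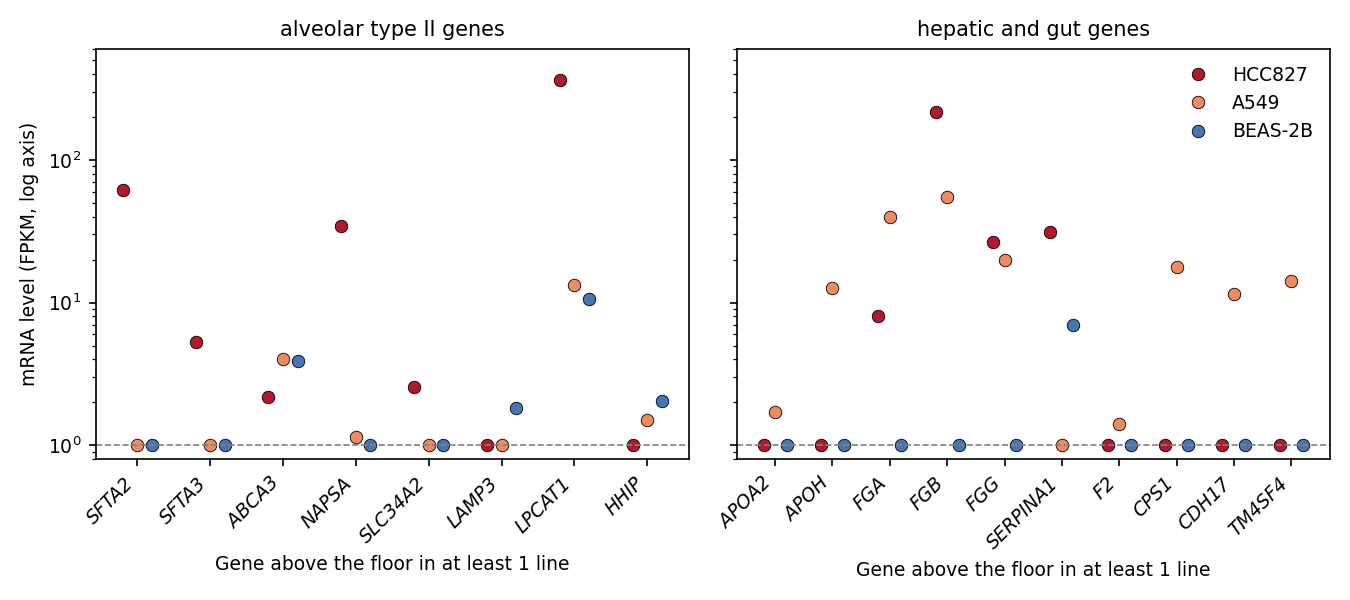
FPKM on a log axis of every alveolar type II gene (left) and every liver and gut gene (right) above the floor in at least 1 of HCC827, A549 and BEAS-2B, with 1 point per library and the floor dashed. SFTA2 (61.3 FPKM) and NAPSA (34.5 FPKM) are high in HCC827 only, and CPS1 (17.6 FPKM), TM4SF4 (14.1 FPKM) and APOH (12.7 FPKM) leave the floor in A549 only.

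The genes with the most similar levels were found by the Euclidean distance of log2(FPKM + 1) over the 3 lines. NKX2-1 had 15 genes within a distance of 0.1, the nearest being TMEM45B (distance 0.0068), ADAP1 (0.016) and TINAG (0.021), all at the floor in A549 and BEAS-2B. HNF4A also had 15, led by RP11-169F17 (0.0080), WDR72 (0.0098) and ANXA13 (0.011), and FOXA2 had 6, led by HYKK (0.0032), ODF3B (0.033) and KRT4 (0.034). TP63 had 83, led by C14orf132, TST and S100A5, and CEBPA had 55, among them COL4A3 and SLC9A2, all of these at distances of up to 0.0033. A value close to the floor in A549 with the floor elsewhere was thus the member profile shared with the most genes. GATA6 had 6 genes within 0.1, led by GLT8D2 (0.010), FLNC (0.032) and DOK1 (0.039), and SOX2 had 8, led by DGKG (0.025), SDSL (0.029) and CMTM8 (0.031). FOXA1 had 2, C16orf91 (0.072) and AGPAT5 (0.081), followed by NT5DC1 (0.18), and SOX9 had none, its nearest being ATG10 (0.15), NXPE3 (0.19) and TMEM254 (0.20). With 3 points per gene such likeness is a description.

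The coding genes on either side of each member were read next, with the order taken from RefSeq. NKX2-1 and FOXA1 lie on chromosome 14, SOX2 and TP63 on chromosome 3, FOXA2 and HNF4A on chromosome 20, SOX9 on chromosome 17, GATA6 on chromosome 18 and CEBPA on chromosome 19. Of 18 neighbours, 17 were in the table, and 11 were above the floor in HCC827, 11 in A549 and 10 in BEAS-2B. NKX2-8, a relative beside NKX2-1, was at the floor in every line, and MBIP on the other side was 9.39 FPKM in HCC827, 4.92 FPKM in A549 and 8.32 FPKM in BEAS-2B. MIPOL1 and TTC6, which flank FOXA1, were 1.49, 4.93 and 2.07 FPKM and 3.27, 4.92 and 2.47 FPKM in HCC827, A549 and BEAS-2B, so both were highest in A549. FOXA1 was also highest there, but its values in A549 and HCC827 were close (9.01 and 8.24 FPKM). MIPOL1 was lowest in HCC827, unlike FOXA1. PAX1 beside FOXA2 and R3HDML beside HNF4A were at the floor in all lines, and TTPAL on the far side of HNF4A was 3.39, 1.76 and 7.59 FPKM, lowest in the line with HNF4A above the floor. CEBPG, a relative beside CEBPA, was 6.18 FPKM in HCC827, 14.9 FPKM in A549 and 6.36 FPKM in BEAS-2B, highest like CEBPA in A549, and SLC7A10 was at the floor throughout. SLC39A11 beside SOX9 was 34.8, 11.3 and 4.84 FPKM, highest in HCC827 where SOX9 was at the floor, and KCNJ2 was at the floor. MIB1 beside GATA6 was 8.82, 8.54 and 12.5 FPKM with CTAGE1 at the floor, and DNAJC19 and ATP11B beside SOX2 were 9.76, 5.04 and 5.88 FPKM and 9.08, 4.24 and 11.9 FPKM, both lowest in A549 where SOX2 was highest. TPRG1 and P3H2 beside TP63 were 4.74, 1.24 and 1 FPKM and 8.55, 10.1 and 16.8 FPKM in HCC827, A549 and BEAS-2B. SOX2 lies inside the non-coding gene SOX2-OT, and NKX2-1, GATA6 and HNF4A have antisense genes beside them. Whether counting used strand is not given in the sources used here, so reads of these partners cannot be told apart from those of the members.

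Target predictions were deposited for 9 miRNAs, short RNAs that repress mRNAs through a seed at bases 2 to 8, and their lists held 7 of the members. The mature sequences of the 5 miRNAs whose lists hold members are shown from RefSeq (GRCh38.p14), with the seed in capitals.
hsa-miR-1252-5p: aGAAGGAAauugaauucauuua
hsa-miR-1299: uUCUGGAAuucugugugaggga
hsa-miR-767-5p: uGCACCAUgguugucugagcaug
hsa-miR-889-3p: uUAAUAUCggacaaccauugu
hsa-miR-942-5p: uCUUCUCUguuuuggccaugug
No seed was shared between them. GATA6 was in 5 of the 9 lists, those of hsa-miR-1252-5p, hsa-miR-1299, hsa-miR-767-5p, hsa-miR-889-3p and hsa-miR-942-5p. FOXA2 was in 3 lists, SOX9 and HNF4A in 2 each, FOXA1, SOX2 and TP63 in 1 each, and NKX2-1 and CEBPA in none. The hsa-miR-889-3p list held FOXA1, FOXA2, GATA6, SOX9 and HNF4A, and the hsa-miR-1299 list held FOXA2, GATA6, HNF4A and TP63. These lists were long, with 26.9% of the genes of the table for hsa-miR-1252-5p, 26.0% for hsa-miR-1299, 22.6% for hsa-miR-889-3p, 18.4% for hsa-miR-942-5p and 17.2% for hsa-miR-767-5p, and the other 4 lists, which held no member, had between 1.05% and 2.40%. They are predictions, and levels of the miRNAs were not analysed here.

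Of the 9 members, 3 had rows in the circRNA table, in which 52.2% of the genes of the mRNA table had rows and the median host had 4. TP63 had 3, HNF4A had 2 and SOX9 had 1, and the other 6 members had none. Among them, the intronless genes SOX2 and CEBPA, have no splice sites to join. A circRNA forms when the end of an exon is spliced back to the start of an earlier exon. Its level is given as TPM, a share of a set of transcripts. Whether that set held circRNAs only or linear RNA as well is not given in the sources used here. All 6 circRNAs are listed on the plus strand in hg19, with positions as deposited.

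The TP63 circRNAs were the highest. On chromosome 3, hsa_circ_0068514 (189455528 to 189456563, a span of 1.035 kb) was 40.0 TPM in A549, hsa_circ_0068515 (189590647 to 189604340, 13.7 kb) was 23.2 TPM and hsa_circ_0068516 (189607128 to 189608671, 1.54 kb) was 14.6 TPM, and all 3 were listed at 0 in HCC827 and BEAS-2B. Of all circRNAs above 0 in A549, 90.6% were lower than the first of them, 83.9% lower than the second and 75.9% lower than the third. TP63 thus had the lowest mRNA of the 7 members above the floor in A549 and the highest circRNA. The HNF4A circRNAs, on chromosome 20 and overlapping each other, were hsa_circ_0060476 (43034697 to 43047152, 12.5 kb) at 11.8 TPM and hsa_circ_0060477 (43042333 to 43060030, 17.7 kb) at 12.6 TPM in A549, and both were listed at 0 in HCC827 and BEAS-2B. The SOX9 circRNA, hsa_circ_0045521 on chromosome 17 (70118859 to 70122560, 3.70 kb), was 0 TPM in HCC827, 6.47 TPM in A549 and 3.60 TPM in BEAS-2B, in the order of SOX9 mRNA. Every circRNA was therefore above 0 only in lines where its host mRNA was above the floor.

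Of the 6 circRNAs, 0 were above 0 in HCC827, 6 in A549 and 1 in BEAS-2B, beside 5.34%, 47.5% and 46.2% of all 92509 in the same order, and 5 were above 0 in A549 alone, beside 6.55% of all circRNAs. The HCC827 library stood apart, since its 4937 circRNAs above 0 had a median of 63.4 TPM, compared with 4.51 TPM for 43950 in A549 and 5.17 TPM for 42706 in BEAS-2B. All 6 values of A549 were below the HCC827 median, so a member circRNA listed at 0 in HCC827 is not shown to be absent. In A549 the circRNA TPM summed per host and divided by host FPKM was 38.3 for TP63, 2.71 for HNF4A and 0.771 for SOX9, compared with a median of 4.89 over 8330 hosts. Of these hosts, 98.1% were lower than TP63, 29.0% lower than HNF4A and 4.37% lower than SOX9. The TP63 ratio sums 3 circRNAs over a host value of 2.03 FPKM, which is near the floor. The SOX9 ratio has 1 circRNA over 8.39 FPKM. How far the low host value and the number of circRNAs summed bear on the place of TP63 was not tested. In BEAS-2B the same ratio for SOX9 was 0.709, with 4.42% of 8311 hosts lower, close to its place in A549. The 2 units come from separate tables, and how fragments of linear and circular RNA were kept apart is not given in the sources used here.

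**Figure D5:**
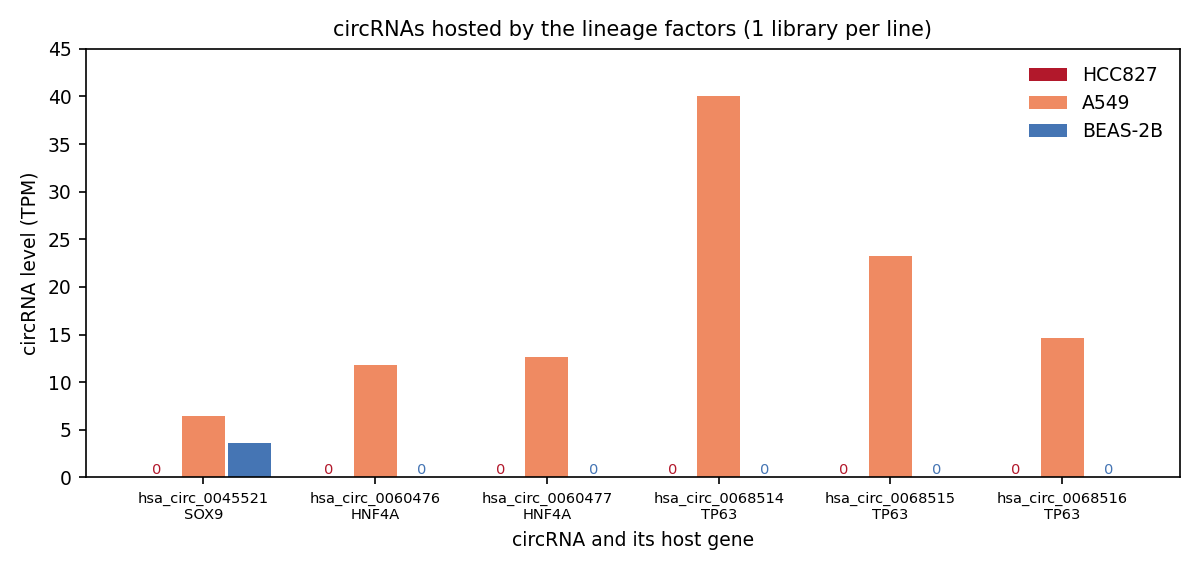
TPM of the 6 circRNAs hosted by SOX9, HNF4A and TP63 in HCC827, A549 and BEAS-2B, with bars from 0 and values listed at 0 written as 0. All 6 are above 0 in A549, from 6.47 TPM for SOX9 to 40.0 TPM for TP63, and only the SOX9 circRNA is above 0 in BEAS-2B (3.60 TPM).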

How the data were processed

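RNA of the 3 lines was sequenced after depletion of ribosomal RNA, with 1 library per line. The mRNA values were deposited by the authors as FPKM, and the sources name PEAT, STAR, Cufflinks and GENCODE, with the mouse build mm10 for these human lines. The submitters' processing notes give the build hg19 and the tools kallisto, sleuth and FastQC (0.11.7), with no word on what each was used for. The circRNA values were deposited by the authors as TPM for 92509 circRNAs, and the program that made them is not given in the sources used here. The deposited fold changes are the authors' ratios of HCC827 to BEAS-2B and were not used, nor were the 2 network files. The lists of predicted miRNA targets repeat the same FPKM, with no difference from the mRNA table for the members. The RNA kit is Trizol in the labels and RNeasy in the methods.

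Of 20635 names in the mRNA table, 117 that were repeated and 28 that had turned into numbers were left out, some of them in both groups, leaving 20494. Between 9 and 11 values per line lay just below 1 FPKM (lowest 0.995) and were treated as at the floor. Differences are of log2(FPKM + 1), for genes above 1 FPKM in at least 1 of the 2 lines, and a gene was called at 2-fold. A fold on this scale understates the change of low genes. With 1 library per line no test, SD or p exists, and FPKM and TPM keep no depth. The code for calling and scaling was run on simulated data without noise. The fold changes to be called were put only into genes above the levels of the members. That check does not bear on calls near the floor. Python 3.11.15, pandas 2.3.3 and numpy 2.4.6 were used.

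All 9 members, the 4 genes of every other list with the largest difference in any comparison, the 3 nearest genes of each member, the coding neighbours and every member circRNA above 5 TPM are named, and further names were chosen after their values were seen. Some genes that this rule names are not reported here. The members, the 15 other lists and the alternatives were chosen with earlier results of these data known. Of 6 endothelial genes 5 were matched, with PECAM1 not matched. Gene order, promoters and miRNAs come from RefSeq tables on GRCh38.p14, and positions of circRNAs stay in hg19. Alternatives were a pseudocount of 0.1 FPKM or none, the median of ratios, quantile normalization, a minimum of 5 FPKM or none, a 4-fold difference, circRNA levels of 1 and 5 TPM, and leaving out circRNAs that share all their values with another.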

Additional observations from a re-analysis of the deposited data

Results flagged for a closer look

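SOX9 mRNA differed from BEAS-2B in opposite directions in the 2 adenocarcinoma lines, with a log2(FPKM + 1) difference of -1.60 in HCC827 and of 0.63 in A549. The levels behind it were 1 FPKM in HCC827, 8.39 FPKM in A549 and 5.08 FPKM in BEAS-2B. The difference between the lines was not tested, since each has 1 library, and both values share the BEAS-2B library.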

How the results depend on the processing

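No paired analysis was possible because each line has 1 library, and for the same reason no library could be left out. Of the recounts of the members, 43 stayed within 1.5 times of the reported count and 8 did not. Some that stayed could not move, so these numbers are not read as a measure of stability. Dropping the minimum adds only members at the floor in both lines, and no member circRNA shares all its values with another. A higher TPM limit cannot change the count of 0 in HCC827. With a 4-fold difference, 1 member was higher and 0 lower for HCC827 against BEAS-2B (3.75% and 3.44% of all genes), and 2 were higher and 0 lower for A549 against BEAS-2B (2.90% and 2.89%), since fewer genes pass a larger fold. With a minimum of 5 FPKM, 0 members were lower for A549 against BEAS-2B (19.8% of all genes), since GATA6 is below that level in both. Without a pseudocount, 2 members were higher and 5 lower for HCC827 against A549 (18.7% and 16.8% of all genes), where the ratios of GATA6 (log2 1.05), CEBPA (-1.46) and TP63 (-1.02) pass 2-fold. So do SOX2 for HCC827 against BEAS-2B (1.01) and CEBPA (1.46) and TP63 (1.02) for A549 against BEAS-2B. Each of these ratios sets a low value against the floor. With a limit of 5 TPM, 0 member circRNAs counted in BEAS-2B, since that of SOX9 is at 3.60 TPM. No member changed direction under the 2 other pseudocounts, the median of ratios or quantile normalization. The depth is unknown, and so is how the floor of 1 FPKM arose, which limits every value close to it.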
